A study of Homo sapiens with 4 samples.

Results

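The genes described here are 36 human imprinted genes, PEG3 among them, on arrays of LNCap cells, an androgen-responsive line of human prostate tumor cells. A probe set is a group of short array probes that read 1 transcript, and those annotated to a single symbol among the 36 genes were taken. This gave 90 probe sets of 31 genes, of 39464 probe sets of 19583 genes in all. IGF2 and SNURF are named only by probe sets shared with another gene, and RTL1, SLC22A18 and MCTS2P were not analysed here. The arrays compared 2 samples labelled LNCap ERG, transduced with a lentivirus for ERG and red fluorescent protein (ERG-RFP in the study's methods), and 2 labelled LNCap Vector, which received the control lentivirus with the fluorescent protein only. All were grown in the same medium and seeded overnight before RNA was taken. ERG is the ETS transcription factor that a common gene fusion brings under androgen control in prostate cancer. The set is defined by known imprinting, and it was selected on the log2 fold change of PEG3 between these same arrays. The values of the members are therefore given as a description, without a test of their own. The arrays read RNA of whole cultures, in which fewer cells with a transcript and less of it per cell cannot be told apart.

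At an imprinted gene only the copy inherited from 1 parent is used in some or all tissues. The choice is laid down as DNA methylation of CpG-rich control regions in the egg or sperm and is kept through later cell divisions. Most imprinted genes lie in clusters, where a single control region governs several neighbours. Many of the genes act on growth, through insulin-like growth factor signalling, the cell cycle or the placenta, and loss of imprinting or silencing of these genes is a known event in tumours. The arrays read the amount of RNA only. They do not tell the parental copies apart and do not measure methylation.

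In the LNCap ERG arrays PEG3 and its antisense transcript PEG3-AS1 were lower than in the LNCap Vector arrays, PEG3 by 2.87-fold and PEG3-AS1 to a level at background, and GRB10, an adaptor protein that dampens insulin receptor signalling, was higher at all 4 of its probe sets. A log2 fold change is the mean log2 intensity of the LNCap ERG arrays minus that of the LNCap Vector arrays. Over the 33 probe sets of the 14 other members above background, log2 fold changes ran only from -0.24 to 0.27. By limma's moderated test with Benjamini-Hochberg adjustment over all 39464 probe sets, 0 of the 90 member probe sets passed, where 0% of all probe sets did. In a fit of only the brightest probe set of each gene, PEG3 alone of the members passed, where 0.0102% of all genes did. Without adjustment, the p in limma's fit of all probe sets was under 0.05 for 5 member probe sets that were higher, 4 of them of GRB10, and for 4 that were lower, beside 4.3% and 4.41% of all probe sets. By the methods' t-test these numbers were 4 and 6, beside 3.65% and 3.69%. The contrast that brought up the set is the one counted here, so these counts are given without further reading.

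GRB10 is shown by its start regions, since it was higher at every probe set and some of these regions are rich in CpG pairs. RefSeq on GRCh38.p14 gives it 5 windows of 300 bases, from 250 before to 50 after a transcript start. They hold 44, 49, 24, 3 and 4 CpG pairs from the outermost start inwards, against a median of 14 over all 35116 windows. Both sequences below are on the minus strand and written 5′ to 3′, with each CpG in capitals. The first is the outermost start and the second is the start with 24 CpG pairs, farther inside the gene. The start with 49 CpG pairs lies between them and is not printed.
GRB10 outermost start, chr7:50793404-50793703: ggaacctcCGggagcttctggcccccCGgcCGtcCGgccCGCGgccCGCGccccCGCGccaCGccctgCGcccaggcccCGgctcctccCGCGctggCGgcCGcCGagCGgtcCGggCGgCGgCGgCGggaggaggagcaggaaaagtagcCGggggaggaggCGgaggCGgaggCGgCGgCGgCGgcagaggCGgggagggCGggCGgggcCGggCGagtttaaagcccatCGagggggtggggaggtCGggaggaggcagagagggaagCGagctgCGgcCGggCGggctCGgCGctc
GRB10 inner start, chr7:50782847-50783146: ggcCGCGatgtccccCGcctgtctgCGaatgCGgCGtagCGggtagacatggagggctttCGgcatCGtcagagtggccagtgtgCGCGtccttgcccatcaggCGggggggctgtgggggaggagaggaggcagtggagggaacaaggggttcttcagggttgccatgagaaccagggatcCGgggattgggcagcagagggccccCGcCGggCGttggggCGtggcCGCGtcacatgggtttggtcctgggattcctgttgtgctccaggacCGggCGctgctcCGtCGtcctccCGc
The letters CCGGAAGT, a form of the site that ETS factors bind, were searched on both strands. They were in none of the 5 GRB10 windows and in 1 of the 50 windows of the 22 members found in that table, that of MKRN3, against 4.14% of all windows. This says only that these letters are not in the windows. The shorter GGAA within them was in 45 of the 50 member windows, those of GRB10 included, against 95.5% of all windows. No window of PEG3, PEG3-AS1 or ZIM2 was used here.

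The level that counts as background was set from probe sets of 31 measured genes of other organs, such as liver and retina. The 95th percentile of their mean log2 intensities was 4.48. Of the members, 17 of 31 genes and 39 of 90 probe sets (43.3%) had a mean over the 4 arrays above it, against 46.4% of all probe sets. PEG3-AS1 passed this line through its LNCap Vector arrays.

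**Figure D1:**
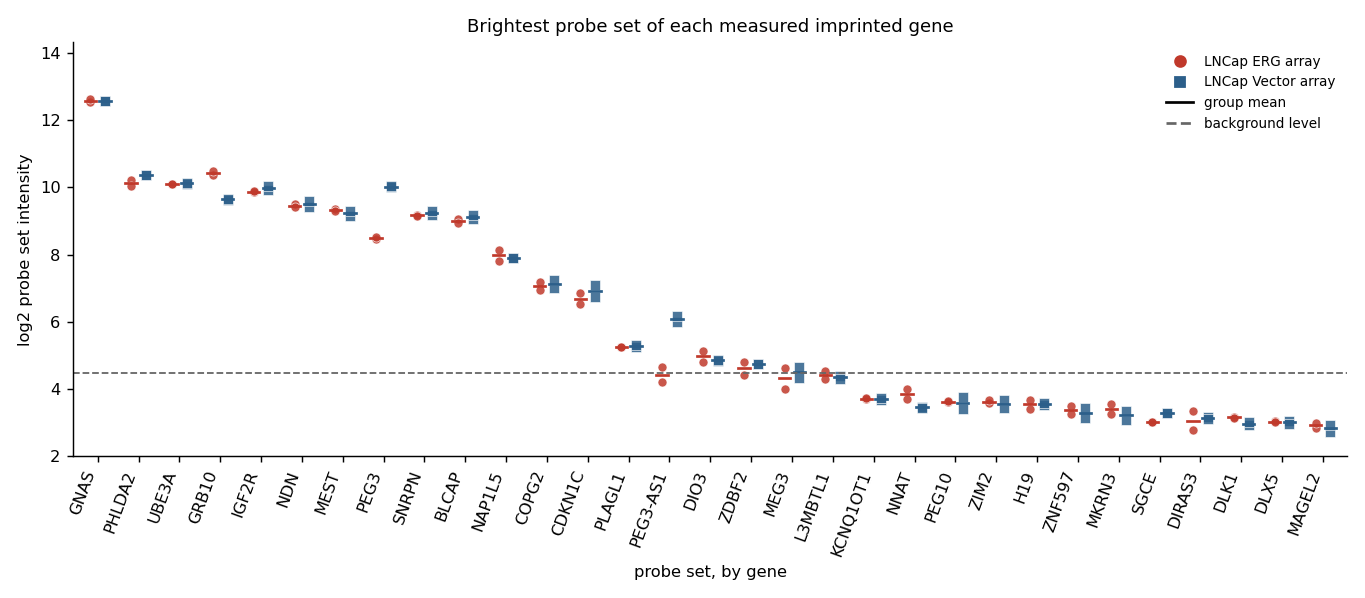
Log2 probe set intensity (y axis) of the brightest probe set of each of the 31 measured imprinted genes (x axis, ordered by mean level). Circles are the LNCap ERG arrays, squares are the LNCap Vector arrays, bars mark each group's mean and a dashed line marks the background of 4.48; PEG3, PEG3-AS1 and GRB10 are the genes above background whose groups stand far apart.

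PEG3 encodes a zinc finger protein made from the paternal copy, which in mice takes part in maternal behaviour, stem cell upkeep and the response to p53 and tumour necrosis factor. Its single probe set had intensities of 355 and 366 in the LNCap ERG arrays and of 1019.8 and 1046 in the LNCap Vector arrays. On the log2 scale these were 8.47 and 8.51 in the LNCap ERG arrays against 9.99 and 10.03 in the LNCap Vector arrays. Both LNCap ERG arrays lay far below both LNCap Vector arrays, and the arrays of each group were nearly level with each other. The means were 8.49 ± 0.03 in the LNCap ERG arrays and 10.01 ± 0.03 in the LNCap Vector arrays (SD, n = 2 each), a log2 fold change of -1.52 with a standard error of 0.09. PEG3 still read well above background in the LNCap ERG arrays. Of all 39464 probe sets, its log2 fold change was number 6 from the lowest.

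PEG3-AS1 is a noncoding RNA read from the opposite strand within PEG3. Its single probe set had log2 intensities of 4.19 and 4.64 in the LNCap ERG arrays and of 5.99 and 6.16 in the LNCap Vector arrays. The groups did not overlap, and the LNCap ERG arrays lay at background, 1 on each side of the line. The log2 fold change was -1.66 with a standard error of 0.17, number 4 from the lowest. Since the lower group is at background, its size is not exact, and adding 16 to the intensities before the log made it -1.15. Its name marks it as a probe set that can bind several transcripts, and which transcripts add to its intensity was not tested.

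ZIM2 is a zinc finger gene that shares its start region with PEG3. Its own probe set had log2 intensities of 3.57 and 3.68 in the LNCap ERG arrays and of 3.42 and 3.67 in the LNCap Vector arrays. All 4 were at background and the groups overlapped, so no change in ZIM2 was detectable. A further probe set names ZIM2 and PEG3 together, and was therefore not counted as a member. It had intensities of 74.3 and 89.8 in the LNCap ERG arrays and of 297 and 279.8 in the LNCap Vector arrays, a log2 fold change of -1.82. Its groups stood apart in the same direction as those of PEG3, and which of the genes it reads is not settled by its annotation.

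Farther out on chromosome 19, the nearest measured genes on either side were not lower to a like extent. On the side of ZIM2, the zinc finger genes ZNF470 and ZNF71 had log2 fold changes of -0.08 and -0.16 at their brightest probe sets, with standard errors of 0.17 and 0.09. On the other side, ZNF264, a further zinc finger gene, had -0.05 with a standard error of 0.10. The brightest probe sets of SMIM17, ZNF835, USP29, ZIM3 and AURKC were at background in both groups, with log2 fold changes of -0.13 to 0.11. USP29 and ZIM3 are imprinted in mice, and neither could be read in these cells.

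**Figure D2:**
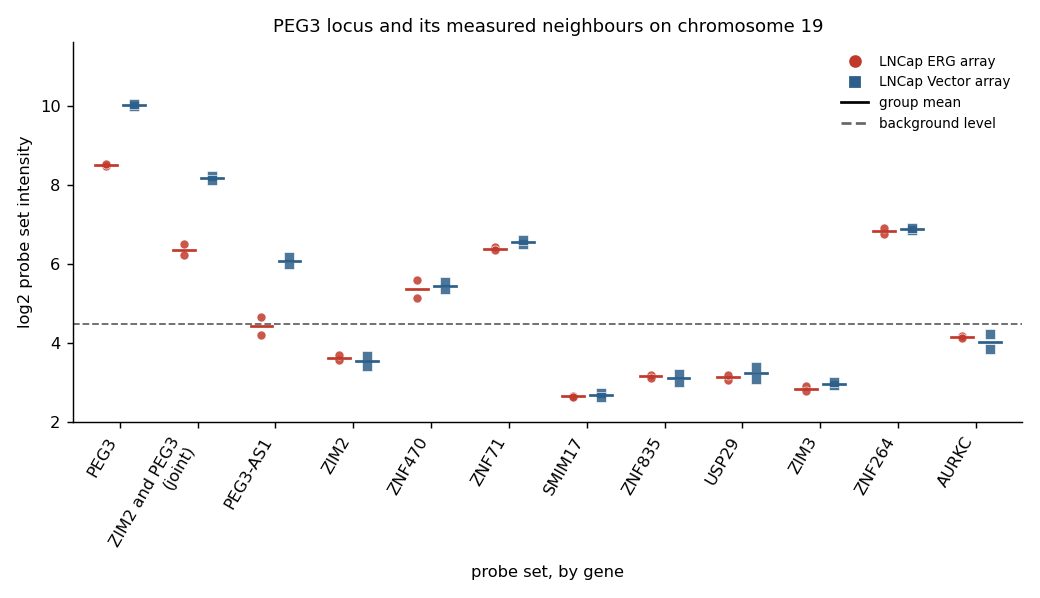
Log2 probe set intensity (y axis) of PEG3, the joint ZIM2 and PEG3 probe set, PEG3-AS1, ZIM2 and 8 measured neighbours on chromosome 19 (x axis). Circles are the LNCap ERG arrays, squares are the LNCap Vector arrays, bars mark each group's mean and a dashed line marks the background of 4.48; only the PEG3, joint and PEG3-AS1 probe sets show groups more than 1 log2 unit apart.

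GRB10 binds the insulin and insulin-like growth factor receptors and limits their signalling; in mice it is used from the maternal copy in most tissues and from the paternal copy in neurons. At its brightest probe set it had log2 intensities of 10.38 and 10.48 in the LNCap ERG arrays and of 9.62 and 9.66 in the LNCap Vector arrays. Both LNCap ERG arrays were higher, and GRB10 was among the brightest members in either group. The log2 fold change was 0.79 with a standard error of 0.09, number 33 from the highest of all probe sets. The second probe set had 8.75 and 8.68 in the LNCap ERG arrays against 8.32 and 8.31 in the LNCap Vector arrays, a log2 fold change of 0.40. The third had 7.92 and 7.96 in the LNCap ERG arrays against 7.36 and 7.49 in the LNCap Vector arrays, a log2 fold change of 0.52. The fourth and dimmest had 5.93 and 5.97 in the LNCap ERG arrays against 5.44 and 5.16 in the LNCap Vector arrays, a log2 fold change of 0.65. No probe set of GRB10 had overlapping groups. These probe sets read 1 gene and are not replicates of each other.

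**Figure D3:**
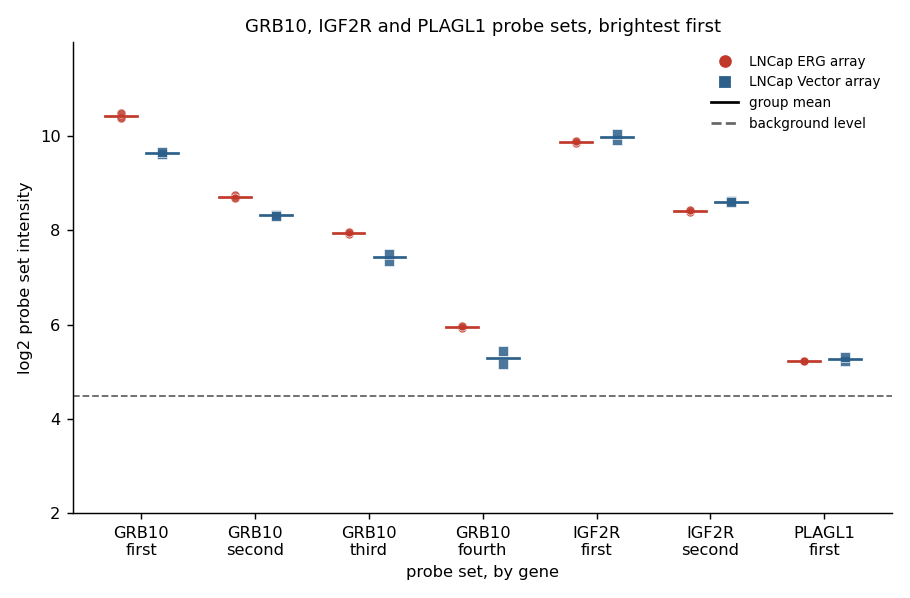
Log2 probe set intensity (y axis) of the 4 GRB10 probe sets, the 2 IGF2R probe sets and the brightest PLAGL1 probe set (x axis, brightest first within a gene). Circles are the LNCap ERG arrays, squares are the LNCap Vector arrays, bars mark each group's mean and a dashed line marks the background of 4.48; every GRB10 probe set has its LNCap ERG arrays above its LNCap Vector arrays.

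Of the measured genes next to GRB10 on chromosome 7, DDC-AS1, an antisense transcript, was at background, with a log2 fold change of 0.04. DDC, the next measured gene on that side, had 1.72 at its bright probe set. It was picked after its values were seen and is described under the other observations. On the other side lies COBL, an actin nucleator. Its probe sets had log2 fold changes of 0.26, at 7.64 ± 0.06 in the LNCap ERG arrays against 7.39 ± 0.002 in the LNCap Vector arrays, and of 0.57, at 5.32 ± 0.05 in the LNCap ERG arrays against 4.76 ± 0.02 in the LNCap Vector arrays (SD, n = 2 each). Both COBL probe sets had groups that did not overlap, as did 20.8% of all probe sets above background in this direction. With a log2 fold change of at least 0.5 as well, as at the dimmer COBL probe set, the share was 0.672%.

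The insulin-like growth factor genes are the best known imprinted genes. IGF2, the growth factor, had only probe sets shared with a read-through transcript, all at background, with log2 intensities of 2.99 to 3.84. H19, the noncoding RNA beside it, was also at background at both of its probe sets. IGF2R, the receptor that takes IGF2 up for breakdown, was bright. Its probe sets had log2 intensities of 9.85 and 9.88 in the LNCap ERG arrays against 9.91 and 10.03 in the LNCap Vector arrays, and of 8.38 and 8.43 in the LNCap ERG arrays against 8.61 and 8.60 in the LNCap Vector arrays. The groups did not overlap at either, with log2 fold changes of -0.11 and -0.20 and standard errors of 0.09 and 0.08. As many as 25% of all probe sets above background were lower without overlap.

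The cluster governed by KCNQ1OT1, a long noncoding RNA, holds growth-limiting genes. KCNQ1OT1 itself was at background, at a mean of 3.71 in both groups. CDKN1C, the cell cycle inhibitor p57, had log2 intensities of 6.54 and 6.84 in the LNCap ERG arrays against 7.11 and 6.75 in the LNCap Vector arrays, which overlap, and log2 fold changes of -0.24 to -0.20 at its 3 probe sets above background. PHLDA2, which limits placental growth, had 10.21 and 10.03 in the LNCap ERG arrays against 10.36 and 10.36 in the LNCap Vector arrays. Its groups did not overlap, and the log2 fold change was -0.24 with a standard error of 0.10. Negative log2 fold changes without overlap were seen in 25% of all probe sets above background.

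In the Prader-Willi and Angelman cluster, NDN, UBE3A and SNRPN were well above background. NDN, a growth suppressor of the MAGE family, had log2 intensities of 9.50 and 9.40 in the LNCap ERG arrays against 9.43 and 9.58 in the LNCap Vector arrays. UBE3A, the ubiquitin ligase lost in Angelman syndrome, had log2 fold changes of -0.05 to 0.05 at its 4 probe sets above background. SNRPN, a splicing protein gene at the centre of the cluster, had -0.17 to 0.27 at 4, and its brightest had -0.07. The SNRPN probe set at 0.27 had 5.49 and 5.92 in the LNCap ERG arrays against 5.33 and 5.54 in the LNCap Vector arrays, which overlap. The 2 probe sets that name SNURF and SNRPN together, the brightest at 12.03 in both groups, had 0.01 and 0.05. MAGEL2, a ubiquitin ligase enhancer, and MKRN3, a brake on puberty, lie in the same cluster and were at background, with 0.08 and 0.18.

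GNAS, which encodes the stimulatory G protein alpha subunit, was the brightest member. Its brightest probe set had log2 intensities of 12.55 and 12.62 in the LNCap ERG arrays against 12.57 and 12.55 in the LNCap Vector arrays, and its 8 probe sets above background had log2 fold changes of -0.03 to 0.12. MEST, a paternally used gene of the alpha/beta hydrolase family, had 9.34 and 9.29 in the LNCap ERG arrays against 9.15 and 9.31 in the LNCap Vector arrays. COPG2, a coat protein subunit beside MEST, had a log2 fold change of -0.06. Groups overlapped for MEST and COPG2 and for the brightest GNAS probe set. BLCAP, a gene of proliferation control on chromosome 20, had 9.07 and 8.95 in the LNCap ERG arrays against 9.04 and 9.16 in the LNCap Vector arrays. NAP1L5, a relative of nucleosome assembly proteins, had 7.81 and 8.13 in the LNCap ERG arrays against 7.90 and 7.89 in the LNCap Vector arrays at its brighter probe set, whose LNCap ERG arrays lay on either side of the LNCap Vector arrays.

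PLAGL1 is a zinc finger transcription factor that in mice controls a network of other imprinted genes. It was near background, with a log2 intensity of 5.24 in both LNCap ERG arrays against 5.24 and 5.31 in the LNCap Vector arrays. Its 3 probe sets had log2 fold changes of -0.12 to 0.08. DIO3, which inactivates thyroid hormone, had 4.80 and 5.14 in the LNCap ERG arrays against 4.84 and 4.87 in the LNCap Vector arrays. ZDBF2, a paternally used zinc finger gene, had 4.41 and 4.82 in the LNCap ERG arrays against 4.75 and 4.73 in the LNCap Vector arrays. The groups of all these overlapped.

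Of the 31 measured members, 14 were at background in these cells, and such intensities cannot show whether the RNA was absent or changed. The 51 member probe sets at background, of these and of brighter members, had log2 fold changes of -0.28 to 0.39. The chromosome 14 cluster, apart from DIO3, was among them. DLK1, a paternally used Notch-like ligand that holds back fat cell formation, had log2 intensities of 3.17 and 3.14 in the LNCap ERG arrays against 2.93 and 3.02 in the LNCap Vector arrays at its brighter probe set. MEG3, the maternally used noncoding RNA of the same cluster, had 10 probe sets, all at background. The brightest MEG3 probe set had 4.64 and 3.99 in the LNCap ERG arrays against 4.32 and 4.66 in the LNCap Vector arrays, with 1 array of each group on either side of the line.

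On chromosome 7, PEG10, a gene derived from a retrotransposon that the placenta needs, had log2 intensities of 3.60 and 3.64 in the LNCap ERG arrays against 3.42 and 3.78 in the LNCap Vector arrays. SGCE, its neighbour, encodes epsilon-sarcoglycan, and its loss causes a form of dystonia. It had 3.02 and 3.01 in the LNCap ERG arrays against 3.29 and 3.28 in the LNCap Vector arrays, which do not overlap although all are at background. DLX5, a homeobox gene, had a log2 fold change of 0.03. DIRAS3, a Ras relative that is a growth suppressor in breast and ovary, had 2.78 and 3.33 in the LNCap ERG arrays against 3.18 and 3.12 in the LNCap Vector arrays. The zinc finger gene ZNF597 had a log2 fold change of 0.09.

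On chromosome 20, L3MBTL1, a chromatin protein that binds methylated histones, had log2 intensities of 4.54 and 4.31 in the LNCap ERG arrays against 4.39 and 4.30 in the LNCap Vector arrays, at the line itself. Its other probe sets had log2 fold changes of 0.10 to 0.32. NNAT, a neuronal proteolipid that lies within BLCAP, had 3.99 and 3.71 in the LNCap ERG arrays against 3.47 and 3.44 in the LNCap Vector arrays. The groups of NNAT do not overlap, yet all 4 values lay below the background line.

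Over all 90 member probe sets the median log2 fold change was -0.01, with 44 above 0 and 45 below, and over all probe sets of the table it was -0.001. The groups did not overlap at 13 member probe sets that were higher (14.4%) and at 17 that were lower (18.9%), against 18.9% and 20.1% of all probe sets. Among the 39 above background, the median size of the log2 fold change regardless of sign was 0.09, as it was among all probe sets above background. Above background, groups without overlap numbered 5 higher and 8 lower of 39 member probe sets, against 20.8% and 25% of all probe sets above background. With a log2 fold change of at least 0.5 in size as well, there were 3, all of GRB10, and 2, PEG3 and PEG3-AS1, against 0.672% and 0.842%. The contrast that chose the set gave these counts too. PEG3 is the gene the set was selected on, and the 3 GRB10 probe sets read 1 gene. PEG3-AS1 was above the background line only through its LNCap Vector arrays. The counts are therefore a description, given without further reading.

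**Figure D4:**
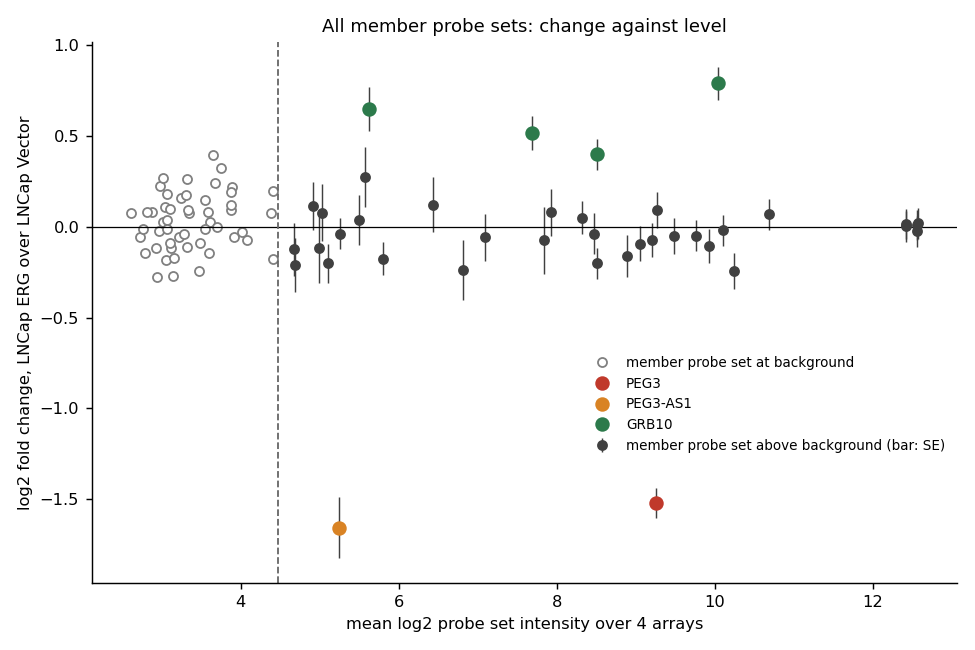
Log2 fold change, LNCap ERG over LNCap Vector (y axis), against the mean log2 intensity over the 4 arrays (x axis) for all 90 member probe sets. Filled points are above the background of 4.48 (dashed line) with bars of 1 standard error, open points at background. PEG3 at -1.52, PEG3-AS1 at -1.66 and the 4 GRB10 probe sets at 0.40 to 0.79 stand outside the other members above background. NNAT, at background, had 0.39.

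Imprints are kept by DNA methyltransferases, by zinc finger proteins with their corepressor, and by insulator and Polycomb proteins. Of 22 factors listed as acting on imprints, which include the TET and NLRP genes beside these classes, 21 were measured at 42 probe sets. Limma's test adjusted over all probe sets called none higher and none lower. Without adjustment, 2 lower and 0 higher had a p under 0.05 in limma's fit, beside 4.41% and 4.3% of all probe sets. YY1, a zinc finger protein that binds the PEG3 control region, had a log2 fold change of -0.15, at 10.67 ± 0.13 in the LNCap ERG arrays against 10.82 ± 0.04 in the LNCap Vector arrays (SD, n = 2 each). DNMT1, which copies methylation when DNA is replicated, and UHRF1, its partner, had -0.15 and -0.13. EED, a Polycomb subunit, had -0.24 at 8.20 ± 0.23 in the LNCap ERG arrays against 8.45 ± 0.08 in the LNCap Vector arrays (SD, n = 2 each). These 4 had the largest sizes without overlap when each factor above background is taken at its brightest probe set. At their brightest probe sets, 4 of the 21 factors were higher and 6 lower without overlap, against 18.9% and 20.1% of all probe sets. Among the higher, DNMT3B had 0.10, EZH2 0.09 and SETDB1 0.08. Dimmer YY1 probe sets above background had -0.26 to -0.05, and those at -0.07 and -0.05 had groups that overlapped. A dimmer probe set of DNMT3A, a methyltransferase that sets new methylation, had -0.33, chosen after its values were seen, where its brightest had -0.04. ZFP57, which guards imprints in the early embryo, was at background.

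Of 43 further imprinted genes, 37 were measured and 15 were above background. ATP10A, a lipid flippase of the Angelman cluster, had a log2 fold change of -0.42, at 5.99 ± 0.05 in the LNCap ERG arrays against 6.42 ± 0.05 in the LNCap Vector arrays (SD, n = 2 each). INPP5F, an inositol phosphatase, had -0.33, RB1, the retinoblastoma protein, -0.25, and ZFP90, a zinc finger gene, 0.30. A dimmer ZFP90 probe set above background had 0.05, with groups that overlapped. The other probe sets of ATP10A were at background, with 0.33 and -0.08. At their brightest probe sets, 6 of the 37 genes were higher and 8 lower without overlap, against 18.9% and 20.1% of all probe sets. None of the 72 probe sets of this list passed limma's adjusted threshold, and without adjustment 4 lower and 3 higher had a p under 0.05, beside the same 4.41% and 4.3%. Of 5 genes whose proteins act with PEG3, 3 were measured. BAX, which promotes cell death, had 0.28, CTNNB1, or beta-catenin, -0.13, and SIAH1, a ubiquitin ligase, -0.02 at their brightest probe sets. None of their 8 probe sets passed, and without adjustment 2 higher, both of BAX, and 0 lower had a p under 0.05, beside 4.3% and 4.41% of all. The second probe set of BAX had 0.33, also without overlap, as had 20.8% of all probe sets above background in this direction. Dimmer CTNNB1 probe sets above background had -0.23 without overlap and 0.10 with overlap.

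The 4 ERG probe sets were at background, with log2 fold changes of -0.24 to 0.12, so they do not check the labels, and it is unknown if their probes lie in the ERG that was transduced. The 8 measured markers of prostate luminal cells were bright, at mean log2 intensities of 9.87 to 12.89, and their summed intensity was 27923 to 28008 in the LNCap ERG arrays against 28477 to 29064 in the LNCap Vector arrays. At their brightest probe sets, KLK2 (-0.29), TMPRSS2 (-0.20) and KLK3 (-0.13) were lower without overlap and FOLH1 (0.08) higher. Of their 21 probe sets, limma's unadjusted p was under 0.05 for 3 lower and 0 higher, beside 4.41% and 4.3% of all probe sets. Markers of basal cells, leukocytes and neuroendocrine cells were at background. Of 5 stromal and 4 endothelial markers, COL1A1 and VWF were above it, while PDGFRB, COL1A2, DCN, LUM, PECAM1, CDH5 and TEK were not. COL1A1 alone had intensities of 443 and 413 in the LNCap ERG arrays against 337 and 321 in the LNCap Vector arrays, most of the stromal sum, and VWF had 74.1 and 63.9 in the LNCap ERG arrays against 52.6 and 59.2 in the LNCap Vector arrays, most of the endothelial sum. COL1A2 had a log2 fold change of -0.21, opposite in sign to that of COL1A1. The summed intensity of the stromal list was 463 to 494 in the LNCap ERG arrays against 369 to 382 in the LNCap Vector arrays, and that of the endothelial list 96.7 to 106 in the LNCap ERG arrays against 79.2 to 86.8 in the LNCap Vector arrays. Their part in the values of PEG3 and GRB10 was not tested.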

How the data were processed

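RNA of 4 LNCap samples was read on Affymetrix GeneChip arrays. The authors analysed the scans with dChip, normalized them with RMAexpress and annotated them with Multiexperiment Viewer; versions and genome build: not given in the sources used here. The file the authors deposited holds an intensity per probe set. No source states its scale, which was taken as linear because most values were small and the highest very large, and log2 of it was used. Of 51965 probe sets, 39464 had 1 symbol in the platform annotation and no missing value, and these were fitted together. The identifiers are those of the perfect-match-only form of the array.

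LNCap ERG was set against LNCap Vector in limma 3.58.1 (lmFit, eBayes; R 4.3.3), with 2 residual and 3.50 prior degrees of freedom, Benjamini-Hochberg adjustment over all probe sets and a threshold of 0.05. The fit was tested on simulated data. Tables and plots were made in Python 3.11.15 with matplotlib 3.10.9. No source says that replicate arrays stem from separate cultures, so each p-value reflects array spread alone, possibly technical. Arrays have no read depth, and their number limits the precision.

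The members and lists were chosen with earlier results of these data known. Named were every PEG3, PEG3-AS1 and ZIM2 probe set, the brightest of each other member and any bright one that differed from it by over 0.3, the nearest measured genes beside PEG3 and GRB10, and up to 4 genes of each further list with the largest change without overlap. Each alternative changed 1 choice: moderation (trended and robust), no dim probe sets, 1 probe set or the mean per gene, plain probe sets, all probe sets of the table, quantile normalization again, housekeeping centring, an offset of 16, the methods' t-test, the replicate block, and each array left out.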

Additional observations from a re-analysis of the deposited data

How the results depend on the processing

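The number of probe sets past the adjusted threshold was 0 in limma's fit over all named probe sets (without adjustment, p was under 0.05 for 1695 higher and 1739 lower). It was 88 with trended and robust moderation, 14 with probe sets averaged by gene, 12 with housekeeping centring, 5 with the offset of 16, and 2 each with 1 probe set per gene and with plain probe sets. These fits tested 39464 probe sets, except for 19583 genes with 1 probe set or the mean per gene and 25104 plain probe sets. The set was selected on the log2 fold change of PEG3 in these same arrays, so calls of PEG3 are a description only. Among the members, 3 passed with trended and robust moderation (PEG3, PEG3-AS1 and the brightest GRB10 probe set), 2 with probe sets averaged (PEG3 and PEG3-AS1), and 1, PEG3, with each of 1 probe set per gene, plain probe sets, housekeeping centring and the offset. None passed without dim probe sets, with all probe sets of the table, quantile normalization again, the methods' t-test after adjustment, the replicate block or any array left out. No imprinting factor passed under any alternative.

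The log2 fold change of PEG3 was -1.47 with housekeeping centring and -1.48 with the offset, against -1.52, and -1.54 to -1.50 with single arrays left out. That of GRB10's brightest probe set was 0.74 to 0.84 with single arrays left out, and the mean of its probe sets had 0.59. The members' median was 0.041 with housekeeping centring, which adds 0.046 to every log2 fold change, and -0.024 to 0.021 with single arrays left out. Taken at their brightest probe sets, 16 of the 31 measured members changed sign with some array left out, 7 of them among the 17 above background. In the other settings 4 changed sign. PEG3, PEG3-AS1 and GRB10 did not change sign in any setting run. With an array left out, MEG3 ranged from -0.50 to 0.15, DIRAS3 from -0.36 to 0.18 and ZDBF2 from -0.33 to 0.08. The cause of these shifts was not tested.

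Same-numbered arrays of both groups deviated with a correlation of 0.07, and no source says that a number marks a shared batch. With the replicate block, 0 probe sets passed and PEG3 stayed at -1.52.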

Other observations

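On the side of GRB10 away from COBL lies DDC, the enzyme that makes dopamine and serotonin; it was picked after its values were seen. Its bright probe set had a log2 fold change of 1.72, at 9.64 ± 0.001 in the LNCap ERG arrays against 7.92 ± 0.03 in the LNCap Vector arrays (SD, n = 2 each), and its second probe set, at background, had 0.06. In mice Ddc shares an imprinted cluster with Grb10. Farther out, FIGNL1, on the far side of DDC, had log2 fold changes of -0.13 and 0.04, and POM121L12, beyond COBL, had 0.05 at its probe set above background. No test was made of whether neighbouring genes move together.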
